A study of Mus musculus with 2 samples.

Results

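Zinc finger protein genes of the mouse Zfp series were examined for recovery with HuR in proliferating C2C12 cells. HuR (Elavl1) is an RNA-binding protein that holds on to AU-rich and U-rich stretches, mostly in the 3' ends of mRNAs. The members were all array clones whose current gene symbol starts with Zfp and a digit, at every signal level. No measured value entered this rule, though it was set with earlier results of these data known. This gave 74 clones of 59 genes among 16896 features, out of 397 protein-coding Zfp genes in the RefSeq annotation of GRCm38.p6. Of the 74 clones, 73 took their symbol from a current gene number and 1 (Zfp106) kept the symbol of the deposited table. The table itself gave 39 of the 74 an older name without Zfp, such as Np220 for Zfp638.

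The study immunoprecipitated HuR from an extract of C2C12 cells, an established mouse myoblast line, with IgG (IgG1 in the column names) in place of the antibody as control. Both samples came from untreated cells of the same line, grown in DMEM with 20% FBS and 1% Pen/Strep and collected at 80% confluency. Each antibody has 1 sample, read in 3 array runs called here the unnumbered run, run 3 and run 4 after their column names. The sources used here do not say if a run is a repeat hybridisation or an immunoprecipitation of its own. No test between the antibodies was therefore possible, and every SD is the spread between runs.

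The deposited values are z scores, in which 0 is the mean and 1 the SD of all spots of a run within one section of the array. A difference is the HuR score minus the IgG score after each run was centred on its section's median, averaged over 3 run pairs, so it is in z score units and is no fold change. A score describes how bright a cDNA spot was and does not compare transcript levels between genes. Fewer cells with a transcript and less of it per cell cannot be told apart in such extracts. Of the myoblast markers looked for, Cdh2 (N-cadherin), Vim (vimentin), Mef2a and Mef2d had clones. Myod1, Myf5, Des, Cdh15, Itga7 and Ncam1 had none. The myoblast markers' clones lay at a median signal percentile of 64.3. Liver and epithelium markers were brighter, at 69.1, while fibroblast markers lay at 56.6 and the blood marker Hbb-b1 at 43.7. Spot brightness therefore did not set the cell type apart from all others.

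Most Zfp genes encode nuclear proteins whose C2H2 fingers, loops of amino acids folded around a zinc ion, read DNA. Many also carry a KRAB domain, which recruits the corepressor Trim28 to silence retroelements and other targets. The Zfp36 proteins differ from these. Their CCCH fingers bind AU-rich elements, the same class of RNA sequence that HuR binds, and they recruit deadenylases that shorten the mRNA's tail, whereas HuR is known mainly for stabilising its targets. Zfp36 mRNAs carry AU-rich elements themselves and are early response transcripts. In the deposited annotation 46 of the 74 clones had a term, 45 of them DNA binding, and 1 had RNA binding.

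No Zfp clone reached a difference of 1 unit in either direction. Of 74 clones 0 were at least 1 unit higher with HuR (background 1.13% of all features) and 0 were at least 1 unit lower (background 0.166%). Among 74 clones a count of 0 is near both of these backgrounds. At a looser limit of 0.6, 1 clone was higher (background 3.1%) and 3 were lower (background 1.28%). The clones ran from -0.97 for Zfp511 to 0.64 for Zfp87. The middle of the distribution was narrow, with a median of -0.09, a lower quartile of -0.18 and an upper quartile of -0.001. Over all features the median was -0.03, the lower quartile -0.16 and the upper quartile 0.12. The mean HuR and IgG scores of the 74 clones correlated at 0.95, the same as over all features, as a description across clones that share 6 runs.

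**Figure D1:**
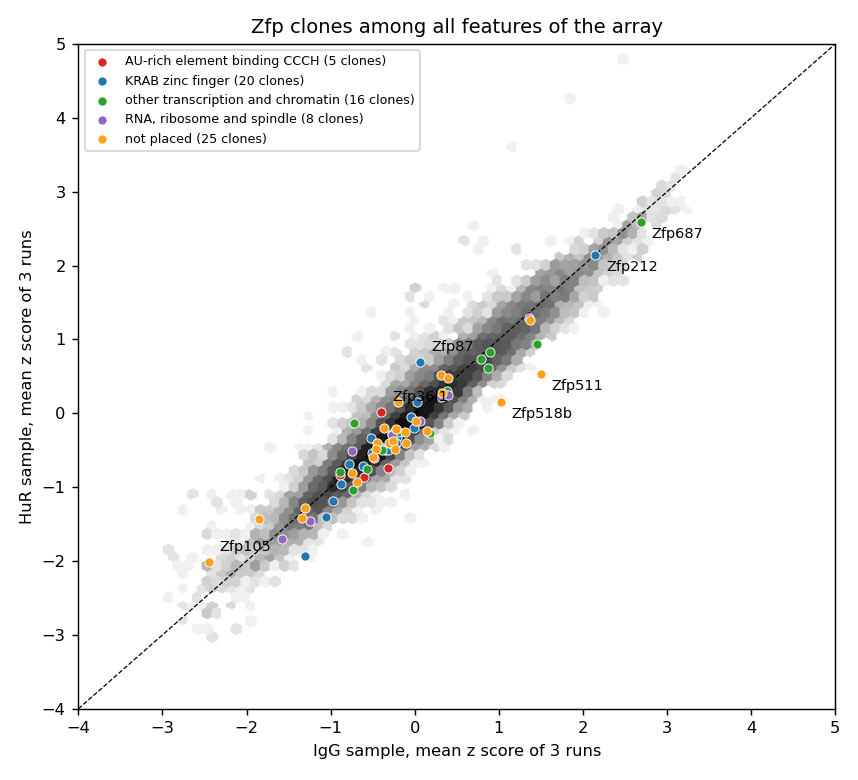
Mean z score of each clone in the IgG sample (horizontal) against the HuR sample (vertical), with all 16896 features in grey on a log colour scale and the 74 Zfp clones coloured by role. The clones lie along the dashed line of equal scores, with Zfp511 and Zfp518b below it and Zfp87 above it.

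More Zfp clones lay below 0 than above. The count was 55 below 0 (74.3%), against a background of 55.3%, and 18 above 0, against a background of 44.3%. The lean differed between run pairs. The unnumbered pair had a median of -0.22 over the Zfp clones and -0.07 over all features. Run pair 3 had -0.04 against 0.00, and run pair 4 had 0.02 against 0.00. Without the unnumbered pair 40 of 74 clones lay below 0 (54.1%), against 55.3% of all features. Taken alone, the unnumbered pair had 52 of 74 below 0 (70.3%, against 56.0% of all features). Run pair 3 alone had 44 (59.5%, against 48.8%). Run pair 4 alone had 36 (48.6%, against 49.4%).

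Higher with HuR in all 3 run pairs were 6 clones (8.11%, background 11.2%), and lower in all 3 were 14 (18.9%, background 12.2%). After centring, every HuR run was above every IgG run for 2 clones, Zfp87 and one clone of Zfp639 (background 3.92%). Every HuR run was below every IgG run for 2 clones, of Zfp296 and Zfp422 (background 2.63%). Across the 74 clones the differences of the unnumbered pair correlated at -0.01 with those of pair 3 and at 0.32 with those of pair 4. Pairs 3 and 4 correlated at 0.04.

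**Figure D2:**
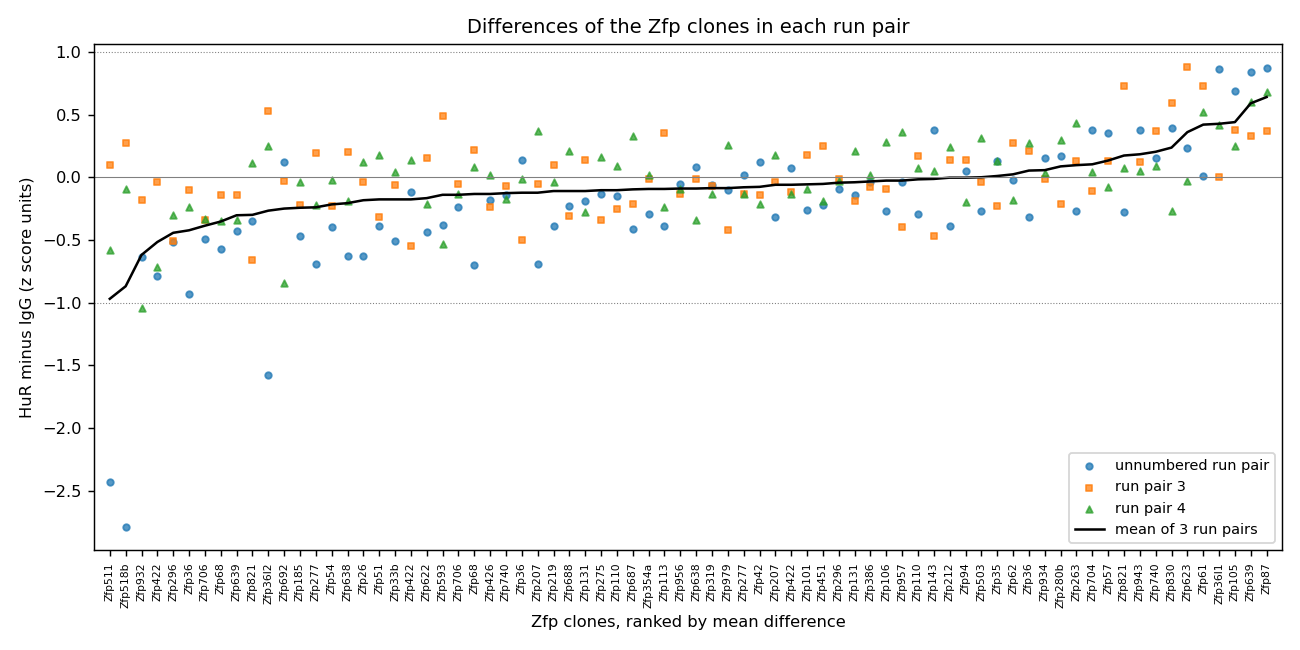
Difference HuR minus IgG in z score units for each of the 74 Zfp clones, ranked by the mean of 3 run pairs (line), with the 3 run pairs as separate points and dotted lines at 1 and -1. The line stays between -0.97 and 0.64, while the unnumbered run pair reaches -2.79 for Zfp518b.

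Of the 74 clones, 6 had in the authors' deposited table a p under 0.05, with a background of 7.48% of all features, so the clones' share of 8.11% was near the background. The higher 2 were Zfp87, with a z ratio of 2.13, and Zfp639, with 1.96, both with a p listed as 0.00 in the authors' deposited table (background for higher 4.15%). The lower 4 (background 3.33%) had z ratios of -0.80 for Zfp185, -1.01 for the other Zfp639 clone, -1.48 for Zfp296 and -1.72 for Zfp422 in the authors' deposited table. How that p was computed is not given, and it was taken as unadjusted.

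The AU-rich element binding group was the closest in function to HuR. Zfp36 (tristetraprolin, Entrez Gene 22695), which promotes decay of cytokine and growth factor mRNAs, had 3 clones. Zfp36l1 (12192) and Zfp36l2 (12193), relatives with the same paired CCCH fingers, had 1 clone each, and Zfp36l3 had none. The group's 5 clones had a median of -0.12 (all features -0.03), with 2 above 0 (background 44.3%) and 3 below (background 55.3%). None of the 5 reached 0.6 in either direction (background 3.1% higher and 1.28% lower). Among 5 clones these counts are near the backgrounds. All 5 were in the dimmer part of the array, at signal percentiles from 15.1 to 45.0.

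For Zfp36 the clone on plate 13 scored -1.24, -0.52 and -0.76 with HuR and -0.97, -0.68 and -1.03 with IgG (unnumbered run, run 3 and run 4, an order kept below). The clone on plate 51 scored -0.60, -0.92 and -0.29 with HuR and -0.79, -0.37 and -0.28 with IgG. The clone on plate 67 scored -1.33, -0.49 and -0.39 with HuR and -0.45, -0.34 and -0.15 with IgG. In all 3 clones the HuR and IgG runs overlapped, and the differences of 0.05 ± 0.32, -0.12 ± 0.33 and -0.42 ± 0.44 (SD over 3 run pairs) were smaller than the spread between runs. The plate 67 clone was lower with HuR in every pair, at -0.93, -0.10 and -0.24. The other spots of its grid had a median of -0.63 in the unnumbered pair. With the grid's median subtracted this clone was at -0.25 ± 0.06, beyond its spread between run pairs, while the other clones were at -0.09 ± 0.14 and 0.08 ± 0.28. The gene's value over the 3 clones was -0.12 ± 0.16.

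A further, brighter clone was linked to Zfp36 by one of its gene numbers and to another locus by the other number, so it was not counted. It scored 1.06, 1.66 and 1.08 with HuR and 1.63, 1.63 and 1.66 with IgG, a difference of -0.37 ± 0.35. Its highest HuR run reached the level of the IgG runs and its other HuR runs lay below them.

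Zfp36l1 was the highest of the group. It scored 0.60, -0.39 and -0.14 with HuR and -0.27, -0.39 and -0.54 with IgG, a difference of 0.43 ± 0.43. The unnumbered pair was at 0.86 and pair 4 at 0.42, while both scores of pair 3 were alike, so the HuR runs overlapped the IgG runs. Its grid and its adjoining wells were near 0, at -0.02 and -0.04, so the value was as large with the grid's median subtracted (0.45).

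Zfp36l2 went both ways. It scored -1.81, -0.33 and -0.46 with HuR and -0.28, -0.81 and -0.71 with IgG, a difference of -0.27 ± 1.15. The unnumbered pair stood at -1.58 and the others at 0.53 and 0.25. The other spots of the clone's grid were at -1.16 in that unnumbered pair. The direction of the group as a whole differed between run pairs: the unnumbered pair had a median of -0.32, against 0.00 for pair 3 and 0.25 for pair 4. The group's median was 0.21 without the unnumbered pair.

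**Figure D3:**
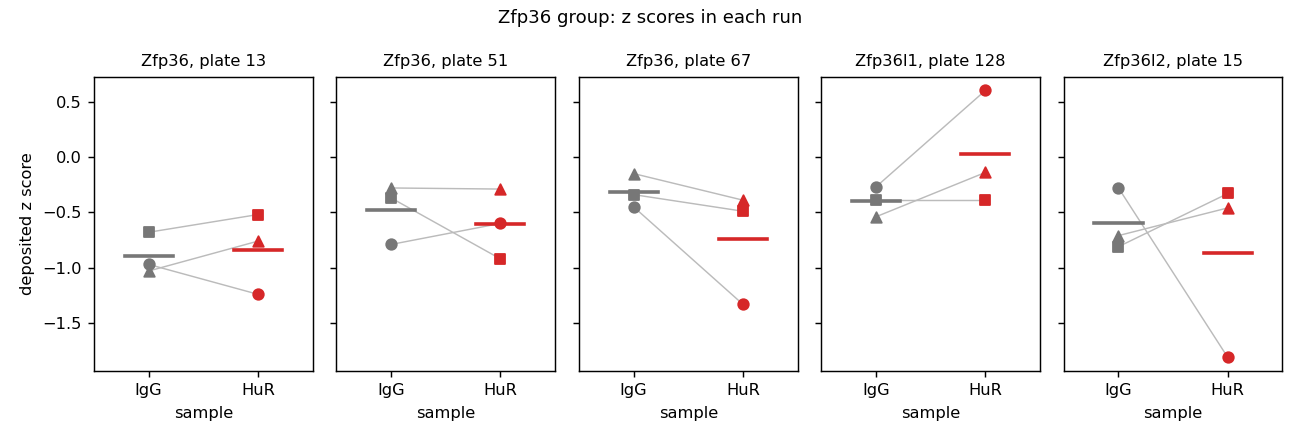
Deposited z scores of the 5 clones of the Zfp36 group in the IgG (grey) and HuR (red) samples, with circles for the unnumbered run, squares for run 3, triangles for run 4, thin lines joining runs of the same number and bars for the mean of 3 runs. HuR and IgG runs overlap in every panel, and Zfp36l2 in the unnumbered HuR run lies far below its other runs, at -1.81.

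The highest Zfp clone was that of Zfp87 (Entrez Gene 170763), a KRAB zinc finger gene. It scored 1.07, 0.42 and 0.61 with HuR and 0.19, 0.05 and -0.05 with IgG. All HuR runs lay above all IgG runs, and the difference was 0.64 ± 0.25. Its grid was at -0.04 and its adjoining wells on the source plate at 0.17. The difference was 0.68 with the grid's median subtracted and 0.42 with that of the adjoining wells subtracted. It is 1 clone, and the gene has no other clone to set beside it.

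Zfp639 (67778), a C2H2 transcription factor, was measured by 2 clones that went opposite ways. The clone on plate 26 scored 0.13, -0.32 and -0.19 with HuR and -0.76, -0.60 and -0.79 with IgG, a difference of 0.59 ± 0.26. The clone on plate 140 scored -1.03, -1.14 and -0.94 with HuR and -0.61, -1.0 and -0.58 with IgG, a difference of -0.30 ± 0.15. Each clone kept its direction in every run pair. The gap of 0.89 between them was the widest among the 13 Zfp genes with several clones, so no direction can be given for the gene.

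Other clones in the upper range were weaker or sat in raised places. Zfp105 was at 0.44 ± 0.23 and was higher in every pair, but it was the dimmest Zfp clone, at signal percentile 0.93. Zfp61 (0.42 ± 0.37) and Zfp623 (0.36 ± 0.47) lay on plate 133 and were highest in run pair 3, with 0.73 and 0.88. Their grids were at 0.85 and 0.86 in that pair. With the grid's median subtracted Zfp61 was at -0.04.

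The KRAB zinc finger genes, placed by general knowledge, had 20 clones of 18 genes with a median of -0.10. Above 0 were 4 clones (20.0%, background 44.3%) and below 0 were 16 (background 55.3%). Of all Zfp clones 24.3% lay above 0. Zfp87 led them, followed by Zfp943 at 0.18 ± 0.17 and Zfp57 at 0.13 ± 0.22. Zfp57 keeps imprinted regions methylated in embryonic stem cells, and its clone scored 0.12, 0.30 and 0.06 with HuR and -0.24, 0.17 and 0.16 with IgG, which overlap. Zfp263, which also carries a SCAN domain, was at 0.10 ± 0.35. The lowest were Zfp932, at -0.62 ± 0.43, and a clone of Zfp68, at -0.35 ± 0.22, whose other clone was at -0.13 ± 0.50.

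Zfp932 (69504) was the lowest KRAB clone. It scored -1.85, -1.22 and -2.71 with HuR and -1.26, -0.99 and -1.67 with IgG. It was lower with HuR in every pair, yet its runs overlapped, and at signal percentile 3.18 it was among the dimmest spots. It was also the only Zfp clone with raised adjoining wells, whose median was 0.89. Subtracting the wells' median run pair by run pair gave -1.53.

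The bright KRAB clone of Zfp212 (percentile 97.9) scored 2.18, 1.85 and 2.39 with HuR and 2.56, 1.71 and 2.17 with IgG. Its pairs were at -0.39, 0.14 and 0.24, so the direction differed between pairs. The remaining KRAB clones, among them Zfp354a (Kid1), Zfp386 and Zfp110 (a partner of the p75 neurotrophin receptor), lay between -0.22 and 0.00 when rounded. In the unnumbered pair the median of the KRAB clones was -0.28, against -0.05 in pair 3 and 0.06 in pair 4.

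Among 16 clones of 11 other transcription and chromatin genes the median was -0.09. Above 0 lay 2 (12.5%, background 44.3%) and below 0 lay 13 (background 55.3%). Zfp296 (63872), a factor of pluripotent and germ cells, had one of the most even clones. On plate 56 it scored -0.17, -0.24 and -0.37 with HuR and 0.30, 0.32 and -0.07 with IgG, a difference of -0.44 ± 0.12 with no overlap between the antibodies. Its adjoining wells were at -0.33. The second Zfp296 clone, on plate 86, was at -0.04 ± 0.04, so the lower value was not shared by both.

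Zfp422 (67255), known as Krox-26 from developing teeth, had 3 clones, all below 0. The clone on plate 27 scored 0.57, 1.33 and 0.90 with HuR and 1.31, 1.42 and 1.62 with IgG, a difference of -0.52 ± 0.41. The antibodies overlapped in the deposited scores but not after centring. The others were at -0.18 ± 0.35 and -0.06 ± 0.11. The gene's value was -0.18, and it varied from -0.34 to -0.03 with 1 run pair left out.

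Other regulators were measured from bright to dim spots. Zfp687 was the brightest Zfp clone, at percentile 99.4, and scored 2.44, 2.48 and 2.84 with HuR and 2.84, 2.69 and 2.53 with IgG. Its difference was -0.10 ± 0.38. Zfp42 (Rex1), a marker of embryonic stem cells, was at -0.08 ± 0.17, and Zfp143, an activator of small nuclear RNA genes, at -0.01 ± 0.43. The 2 clones of Zfp131 were at -0.11 ± 0.22 and -0.04 ± 0.22. Zfp704 was at 0.10 ± 0.25. Zfp692 was at -0.25 ± 0.52 and stood at -0.84 in pair 4, where its grid was at -1.02.

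Genes whose products act on RNA, ribosomes or the spindle had 8 clones of 6 genes, with a median of -0.11. Above 0 was 1 clone (12.5%, background 44.3%). That clone was Zfp830, a nuclear protein tied to splicing, at 0.24 ± 0.45. Zfp207 (BuGZ), which binds spindle microtubules, was at -0.06 ± 0.25 and -0.12 ± 0.53. Zfp638 (Np220), a large nuclear matrix protein, was at -0.09 ± 0.22 and -0.21 ± 0.42. Zfp622 and Zfp593, which take part in making the large ribosomal subunit, were at -0.17 ± 0.30 and -0.14 ± 0.55. In each of these clones the spread between run pairs exceeded the difference.

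Of the 25 clones of 21 genes given no role here, the plate 100 clone of Zfp706 had the most even run pairs among those of at least 0.3 in size. This clone scored -0.34, -0.46 and 0.07 with HuR and 0.14, -0.12 and 0.42 with IgG, a difference of -0.39 ± 0.09. The other Zfp706 clone was at -0.14 ± 0.10, and both were lower in every run pair. The run-to-run swings were larger than the shift, so HuR and IgG scores overlapped even here. Zfp740 was at 0.20 ± 0.15 and -0.13 ± 0.05 and Zfp821 at 0.17 ± 0.51 and -0.30 ± 0.39, each with clones of opposite sign. Zfp185, a LIM domain protein of the actin cytoskeleton without C2H2 fingers, was at -0.24 ± 0.22, and the bright clone of Zfp113 at -0.09 ± 0.39.

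The 2 lowest Zfp clones shared a place on the array. Zfp511 (69752) scored -0.95, 1.57 and 0.97 with HuR and 1.43, 1.52 and 1.55 with IgG, a difference of -0.97 ± 1.31. Zfp518b (100515) scored -1.03, 0.85 and 0.64 with HuR and 1.71, 0.63 and 0.73 with IgG, a difference of -0.87 ± 1.67. Both were lowest in the unnumbered pair, at -2.43 and -2.79. Zfp511 was also lower with HuR in pair 4, at -0.58, where its grid was at -0.07. In the unnumbered pair the other spots of the grids of Zfp511 and Zfp518b were at -1.56 and -1.70. With the grid's median subtracted the clones were at -0.47 ± 0.42 and -0.39 ± 0.62.

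Each section of the array is divided into grids of 22 spots, and a grid holds clones from the same well of different source plates. In the unnumbered pair 21 grids of the first section had a median of -0.5 or less, all between grid rows 8 and 12 and columns 11 and 17. They held 2.67% of all features and 5 Zfp clones (6.76%), of Zfp26, Zfp36, Zfp36l2, Zfp511 and Zfp518b. In run pair 3, 31 grids of the second section had a median of 0.5 or more. They held 3.97% of all features and 4 Zfp clones (5.41%), of Zfp61, Zfp105, Zfp623 and Zfp821. Of the 9 clones in both sets, 8 are among the 12 highest or the 12 lowest Zfp clones.

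Across the 74 clones, the difference correlated with the median of the grid's other spots at 0.69 for the unnumbered runs, 0.82 for pair 3 and 0.54 for pair 4. Over all features the values were 0.35, 0.64 and 0.28. These are descriptions across clones that share runs, and what lies behind the pattern was not tested. With the grid's median subtracted 45 of 74 clones lay below 0 (60.8%), against 49.3% of all features. The median of the clones was then -0.04, and the highest 3 were Zfp87, Zfp639 (plate 26) and Zfp36l1, at 0.68 ± 0.38, 0.60 ± 0.37 and 0.45 ± 0.44. Zfp105, the third highest before, was then at 0.28 ± 0.48. With the clones in lowered or raised grids left out instead, 50 of 65 lay below 0 (76.9%), against 56.7% of the remaining features. The median of those 65 clones was -0.09.

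**Figure D4:**
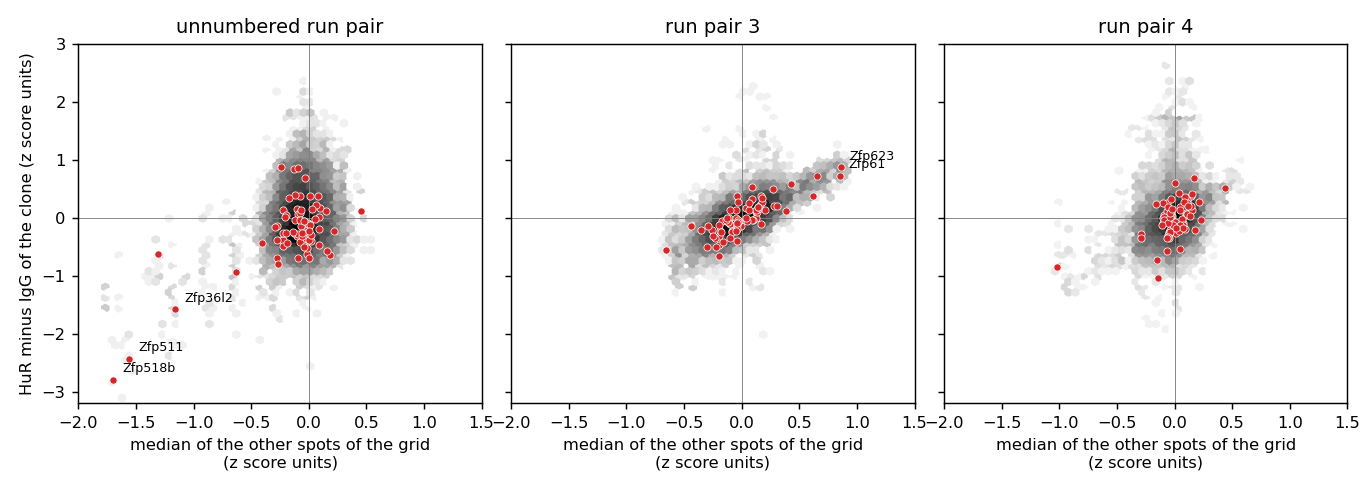
Difference of each clone (vertical) against the median of the other spots of its grid (horizontal), both in z score units, in each run pair, with all features in grey on a log colour scale and the 74 Zfp clones in red. Zfp511, Zfp518b, Zfp26 and Zfp36l2 lie in grids below -1 in the unnumbered pair, and Zfp61 and Zfp623 in grids near 0.85 in run pair 3.

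Zfp spots were dimmer than most. With all features cut into 4 bins of 25% by mean score, the brightest bin held 10 of the 74 clones (13.5%) and the second dimmest 29 (39.2%). Their median scores were -0.35 with HuR and -0.28 with IgG, against -0.10 and -0.09 over all features. The difference hardly followed brightness, with medians of -0.10, -0.09, -0.08 and -0.10 from the dimmest to the brightest bin. All 10 clones of the brightest bin lay below 0, where 55.4% of all features in that bin did. The unnumbered pair had a Zfp median of -0.39 there, against -0.04 for pair 3 and -0.11 for pair 4, and 2 of the 10 clones were Zfp511 and Zfp518b.

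Of the 59 genes, 13 had several clones, and 4 of these had clones of opposite sign. In 7 of the 13 the clones lay further apart than the run-pair SD typical of the gene's clones. The same counts were not made for the other genes of the array, so they do not set Zfp genes apart. Besides Zfp639, the wide ranges were those of Zfp36 (0.48), Zfp821 (0.47), Zfp422 (0.46) and Zfp296 (0.40). Zfp207, Zfp131 and Zfp110 had clones within 0.06 to 0.09 of each other.

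Related gene lists had medians between -0.06 and 0.01. Other C2H2 factors (28 clones, median 0.01) had 16 clones above 0 (57.1%, background 44.3%). Their genes ran from Zbtb14 (0.38) and Klf5 (0.36) down to Klf16 (-0.45) and Klf4 (-0.65), the last in grids with a median of -0.51. The Klf5 value lies between its 2 clones, at -0.06 and 0.78, so no direction can be given for that gene. Other CCCH genes (18 clones, median -0.01) ran from Mbnl1, a splicing regulator, at 0.81, and Zc3h13 at 0.41, to U2af1 at -0.24 and Unkl at -0.29. AU-rich element binding and decay genes (29 clones, median -0.06) ran from Elavl1, HuR's own mRNA, at 0.82, and Elavl2 at 0.23, to Cnot10 at -0.32 and Exosc1 at -0.43. Partners of KRAB proteins (21 clones, median -0.02) ran from Cbx1 at 0.48 and Daxx at 0.26 to Trim28 at -0.13 and Atrx at -0.20. Differences between the lists were not tested. Of the clones of these 4 lists 0 reached 1 in either direction, against a background of 1.13% higher and 0.166% lower. In lists of 18 to 29 clones a count of 0 is near that background.

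**Figure D5:**
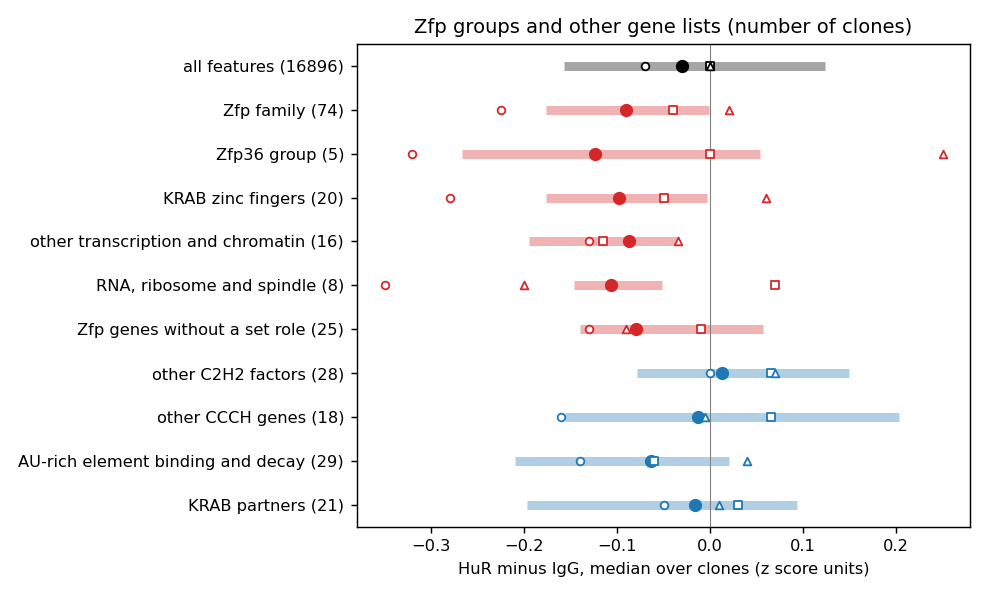
Median difference over the clones of each list in z score units (filled points), with bars from the lower to the upper quartile and open points for the medians in the unnumbered pair (circle), run pair 3 (square) and run pair 4 (triangle). The Zfp groups (red) have medians from -0.12 to -0.08, and their unnumbered pair lies below the mean in every group.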

How the data were processed

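RNA recovered with HuR or IgG was reverse transcribed with a radiolabelled nucleotide, per the labels' protocols, and hybridised to a cDNA array. The authors deposited z scores per run, the mean of each antibody, a two-tailed p-value and a z ratio, per the file headers. The array, the scanner, the background method and any log base are not stated in the labels or headers. The mean scores of both deposited tables hold the same values. Depth has no equivalent here, and the number of arrays limits the precision.

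Within both sections, a run's median was subtracted from its scores. Clones were named by gene number through RefSeq (GRCm38.p6), and 7 clones with different numbers, one giving a Zfp symbol, were left out. A grid's median excludes the clone itself, and adjoining wells are at most 8 on the 96-well source plate. A position was called raised at 0.5 or lowered at -0.5. The planned domain search was not run, as no protein sequences were used here. The centring and position steps were tested on simulated data with Python 3.11.15.

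Named by rule were the Zfp36 group, the 12 highest and 12 lowest clones, genes with 3 or more clones, the 8 brightest and 2 dimmest clones, the 6 clones with the most even run pairs among those of at least 0.3 in size, and the 2 highest and 2 lowest genes of each other list. Others were named by role after their values were seen. The members and lists were chosen with earlier results of these data known. Role groups came from general knowledge and get no test.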

Additional observations from a re-analysis of the deposited data

How the results depend on the processing

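The median over the Zfp clones stayed below 0 in all alternatives run, from -0.14 to -0.02 with 1 run pair left out. It stayed within its spread over run pairs, but that spread of 0.13 is larger than the median of -0.09 and would also hold 0. Without the unnumbered pair the Zfp median was -0.020, against -0.025 over all features, so no lean beyond all features was left there. Without pair 4 it was -0.135 against -0.020. The count of higher clones stayed at 0 except at a threshold of 0.6, where it was 1 (background 3.1%). The count of lower clones was 0 to 2 with 1 run pair left out (Zfp511 and Zfp518b without run pair 3 and without run pair 4). It was 1 with the local median of adjoining wells subtracted (Zfp932) and 3 at a threshold of 0.6 (background 1.28%). With a run pair left out or wells subtracted, the share of all features was not computed, so those counts have no background beside them. In the unnumbered pair the grids of Zfp511 and Zfp518b were at -1.56 and -1.70. The median of the Zfp36 group was 0.21 with the median of run pairs, 0.43 in the second section (1 clone) and -0.18 to 0.21 with 1 run pair left out. It was -0.27 with the brightest clone of each gene, and -0.19 in the first section and also with clones of 2 gene numbers included. It was 0.04 with adjoining wells subtracted, 0.08 with the grid median subtracted and 0.05 without clones in lowered or raised grids. The brighter 50% and brightest 25% of features held no clone of that group. Of 411 values of 27 named Zfp genes under the alternatives, 375 stayed within 1 run-pair SD of the reported value and 36 did not. This count does not measure stability. Several settings only select clones, so a gene with 1 clone keeps its value there by construction. A wide SD also counts as within: Zfp518b (SD 1.67) went from -0.87 to 0.09 without the unnumbered pair. The grid settings and the setting with clones of 2 gene numbers were chosen after seeing the data. The causes of these changes were not tested. No analysis of paired samples was possible because there is only 1 HuR sample and 1 IgG sample. Run pairs were formed only by matching run names of the columns, and each SD over run pairs rests on that pairing. The height of spots over background is not known here, so dim spots cannot be told from background.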

Other observations

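Clones that the table calls Zfp but whose current symbol is another were left out of the family. There were 12 such clones of 10 genes, with a median of 0.01 (all features -0.03), 6 of them above 0 (background 44.3%). Among 12 clones a count of 6 is near that background. Sf1, the branch point binding splicing factor formerly called Zfp162, was the highest, at 0.47 ± 0.18, and it was higher in every run pair. Zbtb14 (formerly Zfp161), a BTB domain repressor, was at 0.38 ± 0.21, with adjoining wells at 0.55. Rnf103 (formerly Zfp103), a ubiquitin ligase of the endoplasmic reticulum, had one of the brightest spots, at percentile 98.5, and was at 0.04 ± 0.91. Zfand5 (formerly Zfp216), a ubiquitin-binding protein known from muscle wasting, was near 0 on both clones, at 0.03 ± 0.18 and within 0.01 of 0.

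Many Zfp genes lie side by side in the genome. In the RefSeq order of protein-coding genes 20 of the 59 genes adjoin another Zfp gene and 39 do not. The genes beside another had a median of -0.06, with 7 of 20 above 0, and the rest had -0.09, with 9 of 39 above 0. Of all features 44.3% lay above 0.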
